A study of Mus musculus with 12 samples.

Results

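The lipid droplet coat and assembly genes measured here were the 5 perilipins (Plin1, Plin2, Plin3, Plin4 and Plin5), the CIDE family gene Cidec, the fat storage-inducing transmembrane genes Fitm1 and Fitm2, and Bscl2, which encodes seipin. They were chosen by symbol, and each of the 9 symbols matched 1 of the 50559 gene rows in every library. The RNA was from visceral white fat of mice of the FVB/N strain, with 4 groups of 3 libraries. Mice labelled wild type carried alphaMHC tTA alone, and transgenic mice carried alphaMHC tTA x alphaMHC TGFb. Every mouse therefore had the tTA driver, and the alpha-myosin heavy chain promoter of both constructs is a promoter of heart muscle cells, so the TGF-b1 transgene is a cardiac one while the tissue measured is fat. The control chow of each genotype had 17% of its calories as fat and 3.1 kcal/g, and the high-fat diet had 60% and 5.21 kcal/g. Mice aged 8 to 10 weeks were fed the high-fat diet for 2 or 6 weeks, and the labels leave unstated which duration applies to a given library. Whether every library is a mouse of its own is not stated either, and p-values then measure only how far these libraries scatter, which may be technical scatter. The comparisons ask how the diet changes these genes, how the cardiac transgene changes them, and whether the diet effect differs between genotypes.

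A white adipocyte stores triglyceride in 1 large droplet wrapped in a phospholipid monolayer, and coat proteins on that surface decide which lipases reach the fat inside. Seipin sits where a droplet buds from the endoplasmic reticulum, FIT proteins help triglyceride leave that membrane, and CIDEC moves lipid from small droplets into larger ones. Perilipin 1 is the main gatekeeper of hormone-stimulated lipolysis in fat cells. Several perilipin genes and Cidec are known targets of PPARG, the nuclear receptor that drives adipocyte differentiation.

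The genes lie on 7 chromosomes of the mouse genome (GRCm38). Plin4, Plin5 and Plin3 share chromosome 17, all on the minus strand, at chr17:56100587-56109948, chr17:56111597-56117606 and chr17:56278962-56290511. Plin4 and Plin5 are 1.65 kb apart and Plin3 lies a further 161 kb on. Plin1 is at chr7:79721164-79732904, Plin2 at chr4:86626910-86670217, Cidec at chr6:113424634-113435760 and Fitm2 at chr2:163468703-163472629, all on the minus strand. Fitm1 at chr14:55575674-55576952 and Bscl2 at chr19:8837467-8848683 are on the plus strand. Exons of another gene cover 11.2% of Fitm1 (antisense Gm15932), 5.72% of Fitm2 (antisense 2310001K24Rik), 6.75% of Bscl2 (Gng3, opposite strand) and 0.294% of Plin4 (Hdgfl2, opposite strand). A further 4.05% of Bscl2 is shared with AC129217.1 on its own strand. Because the strand setting of the counting is not given in the sources used here, reads from these stretches cannot be assigned to 1 gene with certainty.

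Promoter windows were read because Plin2 and Cidec are textbook targets of fatty-acid-sensing PPAR receptors, which bind with RXR to a direct repeat of AGGTCA with any 1 base between the copies. All 9 genes matched the RefSeq promoter table (GRCm38.p6), with 13 windows of 250 bases before an annotated start. The exact repeat, searched on both strands, was in 0 of the 13 windows and in 0.0335% of all 32851 windows of that length. With the fourth base of each copy free, it was in 0 of the 13 and in 0.338% of all windows. A search for the best match, added after seeing this, found a stretch with 2 mismatches upstream of Plin2, and 3.24% of all windows held a match at least that close. The best match upstream of Cidec had 3 mismatches, and a match at least that close was in 5 of the 13 windows and in 21.3% of all windows. These 2 windows are shown because Plin2 was the one gene of the 9 with an unadjusted p below 0.05 for the interaction and Cidec had the highest level per length. Capitals mark the best match, which reads on the strand opposite to the one printed.
Plin2 promoter, chr4:86670218-86670309, minus strand: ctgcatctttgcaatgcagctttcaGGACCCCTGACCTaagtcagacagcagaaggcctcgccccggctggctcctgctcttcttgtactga
Cidec promoter, chr6:113435761-113436010, minus strand: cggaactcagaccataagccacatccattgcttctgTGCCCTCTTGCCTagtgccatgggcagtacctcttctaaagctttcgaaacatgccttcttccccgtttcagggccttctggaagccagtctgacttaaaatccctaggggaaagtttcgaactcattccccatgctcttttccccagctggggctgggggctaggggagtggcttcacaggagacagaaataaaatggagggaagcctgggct
The whole Plin2 window is chr4:86670060-86670309, so the annotated start it precedes lies inside the Plin2 span given above and not at its outer end. The marked stretch begins 225 bases before that inner start of Plin2 and 214 bases before the annotated start of Cidec. Only the first 92 bases of the Plin2 window are printed, since the rest lies inside a transcribed stretch of the annotation. A match in letters is a description of the window and not a measured binding site.

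The libraries held 20.1 to 21.3 M gene counts, and levels are given in CPM, gene counts relative to the library total, scaled by TMM factors (0.95 to 1.07). The 9 genes together took 0.787% to 1.05% of all gene counts, and all 9 passed the filter on low counts. The summed CPM of 11 adipocyte markers such as Adipoq ran from 28335 to 36272, so every library carried genes of fat cells. That sum does not show which fat depot a library came from. Some libraries also carried genes of other tissues. Summed skeletal and cardiac muscle markers reached 632 CPM in wild-type high-fat replicate 3 and 1033 CPM in transgenic control replicate 3, against 8.13 to 91.5 CPM in the other 10. Epithelial markers reached 154 CPM in wild-type control replicate 1 and 397 CPM in transgenic control replicate 2, against 12.9 to 43 CPM elsewhere. The milk protein gene Csn3 had 1107 counts in wild-type control replicate 1 and at most 2 in any other library. Liver markers stood at 332 CPM in wild-type high-fat replicate 2, against 24.6 to 61.4 CPM in the rest. Mesothelial markers summed to 556 to 912 CPM in wild type and 624 to 655 CPM in transgenic tissue on control diet, and to 349 to 465 CPM and 120 to 348 CPM on high-fat diet, so this sum was lower in all 6 high-fat libraries. The part of these tissues in the differences below was not tested, beyond the values given without the libraries richest in muscle or epithelial genes.

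Per kilobase of merged exon, Cidec was the most abundant of the 9 genes, followed by Plin4, Plin1, Plin2, Bscl2, Fitm2, Plin3, Plin5 and Fitm1. Cidec averaged 1803.5 ± 246 CPM per kb over the 12 libraries (SD). Plin4 averaged 601 ± 104, Plin1 353 ± 31.2, Plin2 158 ± 48.2 and Bscl2 68.9 ± 11.6 CPM per kb. Fitm2 stood at 31.7 ± 3.50, Plin3 at 21.5 ± 1.62, Plin5 at 13.9 ± 6.12 and Fitm1 at 0.752 ± 1.03 CPM per kb. The rank of each gene was the same in all 12 libraries except for Plin3 and Plin5, which exchanged places in some transgenic libraries. With the longest transcript in place of merged exons, Plin1 came to 582 CPM per kb and Plin4 to 604, and these neighbours then exchanged places between libraries too. Plin2 then came to 295 CPM per kb and exceeded Plin4 in wild-type control replicate 1 (501 against 409 CPM per kb).

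**Figure D1:**
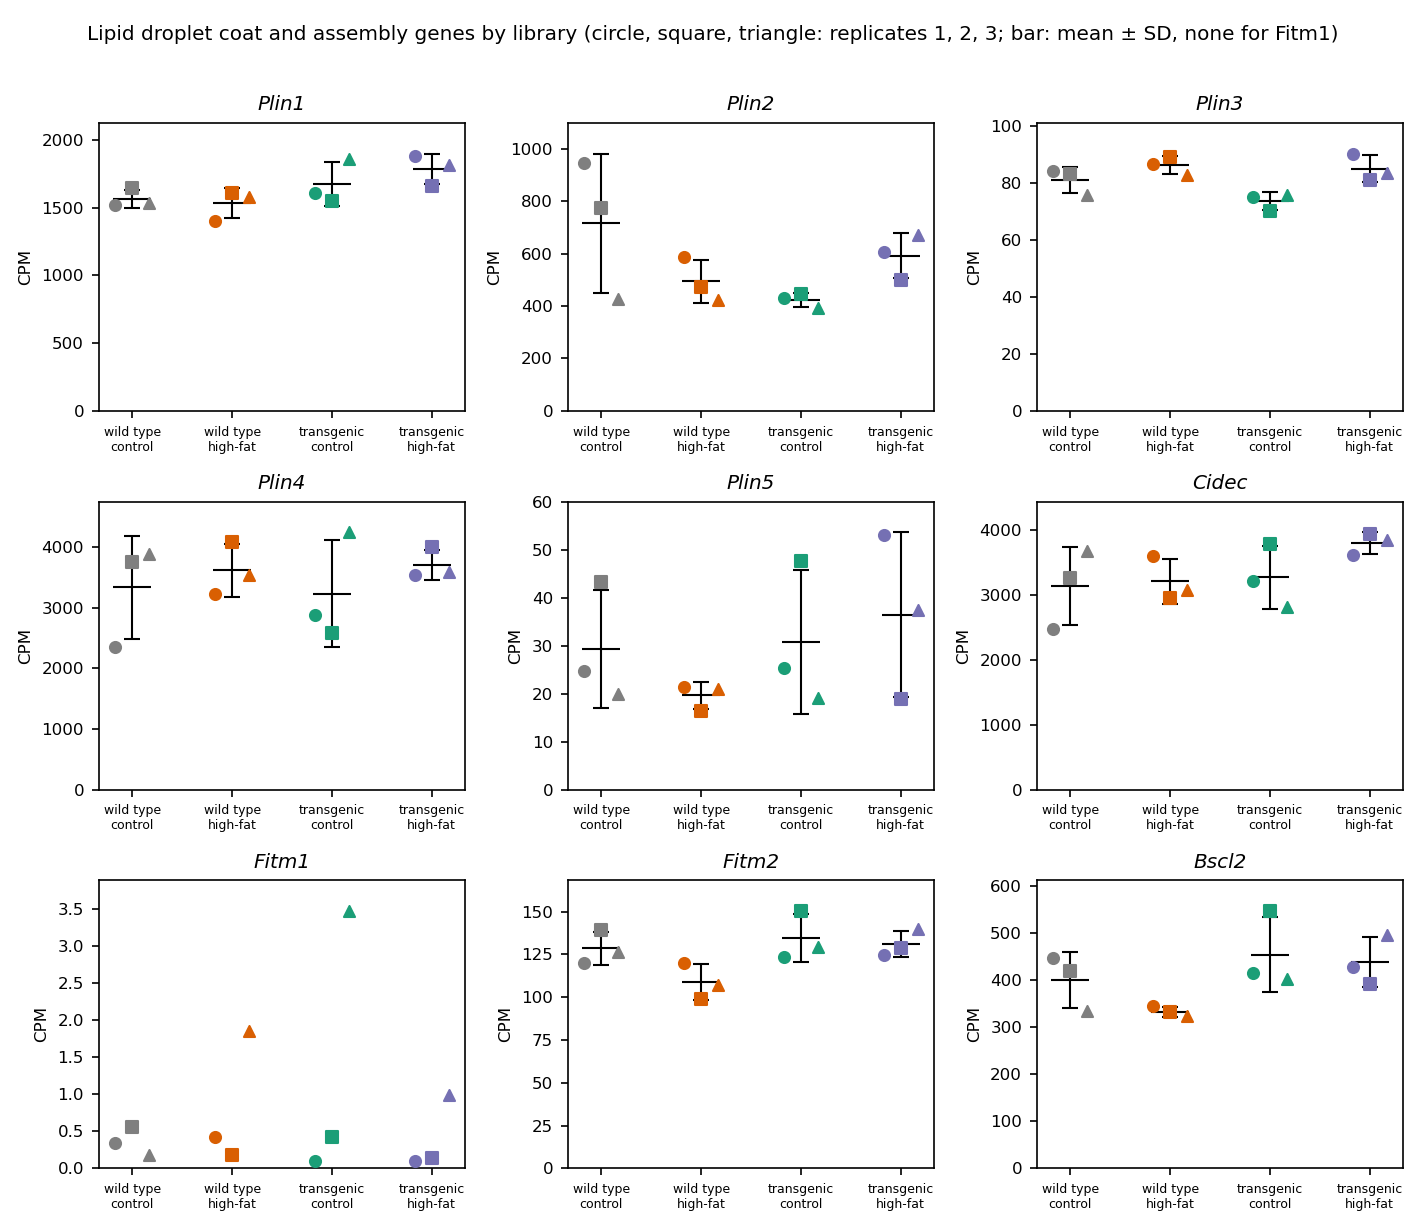
Level of each of the 9 genes in CPM (y axis, starting at 0) in the 4 groups (x axis). Points are libraries and the bar with whiskers is the mean ± SD of 3; for Fitm1, with 2 to 77 counts per library, only points are drawn. Plin2 is spread from 426 to 946 CPM in wild type on control diet and lies between 392 and 446 CPM in transgenic tissue on that diet.

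No coat or assembly gene passed an adjusted p of 0.05 in any comparison by edgeR's quasi-likelihood test. Plin2, the coat of small and growing droplets in many cell types, had the smallest unadjusted p of the 9 genes in any comparison (0.0071, for the transgene on control diet). On control diet it was at 715 ± 265 CPM in wild type and 422 ± 27.7 CPM in transgenic tissue, and on high-fat diet at 494 ± 82.2 and 592 ± 85.5 CPM (SD, n = 3 each). Plin5, the perilipin of oxidative tissues, had a larger difference with a wider spread, 19.7 ± 2.78 CPM in wild type and 36.5 ± 17.1 CPM in transgenic tissue on high-fat diet. On high-fat diet the transgenic libraries of Plin1, Cidec, Fitm2 and Bscl2 all lay above the wild-type ones, by 0.22 to 0.40 on the log2 scale. For Cidec the nearest pair was 3604 against 3597 CPM. In that comparison the libraries did not overlap for 14% of all tested genes, and 0 of all tested genes were called. Fewer cells of a type and less RNA per cell cannot be told apart in bulk tissue.

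For the diet effect in wild type, 0 of the 9 genes were called, where 1.14% of the 16550 tested genes were. At an unadjusted p below 0.05 there were 2 of 9 (Plin2 and Fitm2), against 18.1% of all genes, and the libraries of the diets did not overlap for 0 of 9, against 24.9% of all genes. In transgenic tissue the diet gave 0 of 9 calls against 8.73% of all genes, 1 of 9 at an unadjusted p below 0.05 (Plin3) against 25.8%, and 2 of 9 without overlap (Plin2 and Plin3, both higher on high-fat diet) against 27.8%. With the genotypes averaged, 17.4% of all genes were called by diet and 0 of the 9, and 32.4% of all genes against 1 of the 9 (Plin3) had an unadjusted p below 0.05. For 9 genes these counts are a description, and a difference of 1 or 2 genes from the share of the whole table is no result about them.

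The transgene gave few calls in the whole table. On control diet 0.0363% of all genes and 0 of the 9 were called, 11% and 1 of 9 (Plin2) had an unadjusted p below 0.05, and 14.1% and 1 of 9 (Plin3, lower in transgenic) did not overlap. On high-fat diet 0% of all genes and 0 of the 9 were called by edgeR, 6.73% and 3 of 9 (Plin5, Fitm2 and Bscl2) had an unadjusted p below 0.05, and 14% and 4 of 9 did not overlap. Averaged over diets, 0% and 0 of 9 were called, and 12.3% and 2 of 9 (Fitm2 and Bscl2) had an unadjusted p below 0.05. For the genotype by diet interaction, the diet effect in transgenic minus that in wild type, 0% and 0 of 9 were called, and 5.61% and 1 of 9 (Plin2) had an unadjusted p below 0.05. DESeq2 and limma-voom with quality weights, fitted to all 12 libraries, also called 0 of the 9 in each of the 7 comparisons. Over all genes, DESeq2 called 847 for diet in wild type, 256 for the transgene on control diet and 3390 for diet averaged over genotypes. limma-voom called 699, 8 and 3205 genes in the same comparisons. The comparisons share groups, so their values are not independent of one another.

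**Figure D2:**
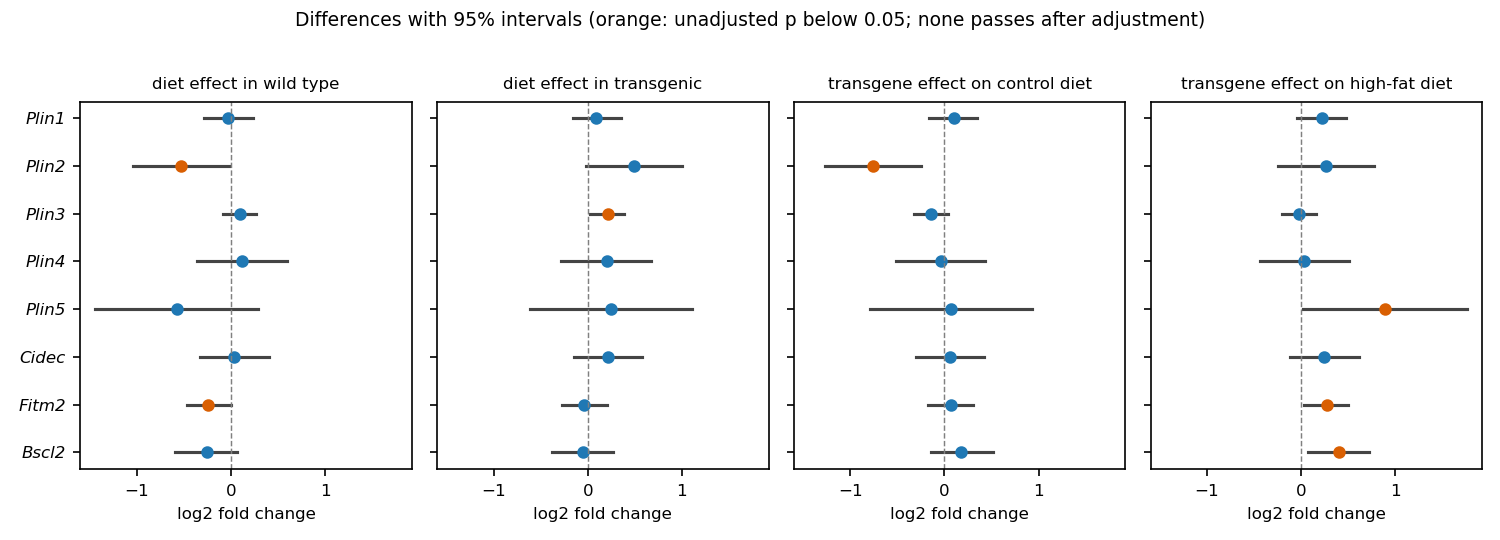
Log2 fold change (x axis) with its 95% interval for 8 genes (y axis) in the 4 pairwise comparisons; Fitm1, whose intervals span several log2 units, is not drawn. Orange points have an unadjusted p below 0.05: Plin2 and Fitm2 for diet in wild type, Plin3 for diet in transgenic, Plin2 for the transgene on control diet, and Plin5, Fitm2 and Bscl2 for the transgene on high-fat diet.

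Plin2, also called adipophilin, coats nascent droplets in most cells and is a minor coat in mature fat cells. In wild type on control diet it stood at 946, 774 and 426 CPM in replicates 1 to 3, and on high-fat diet at 585, 474 and 425 CPM. In transgenic tissue it stood at 429, 446 and 392 CPM on control diet and at 606, 501 and 670 CPM on high-fat diet. Wild-type control replicates 1 and 2 were the highest of the 12 libraries, while wild-type control replicate 3 lay among the transgenic control libraries. In transgenic tissue the diets did not overlap, and in wild type they did. Expressed per 100 counts of Plin1, the main coat gene of the fat cell, Plin2 was 62.2, 47.1 and 27.8 in wild type on control diet and 41.7, 29.4 and 26.9 on high-fat diet. The same ratio was 26.7, 28.7 and 21.1 in transgenic tissue on control diet and 32.2, 30.1 and 36.9 on high-fat diet, so the order of the groups was that of the CPM values.

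The Plin2 diet difference had opposite signs in the genotypes. It was -0.53 on the log2 scale in wild type (SE 0.24, 95% interval -1.04 to -0.02, adjusted p = 0.26), against 0.49 in the transgenic libraries (SE 0.24, interval -0.02 to 1, adjusted p = 0.214). The interaction, which tests that difference, was 1.02 (SE 0.33, interval 0.30 to 1.75, unadjusted p = 0.00949) and did not pass after adjustment (adjusted p = 0.781). On control diet Plin2 differed between genotypes by -0.76 (SE 0.24, interval -1.27 to -0.25, adjusted p = 0.27), and on high-fat diet by 0.26 (SE 0.24, interval -0.25 to 0.77, adjusted p = 0.858). None of these 5 values passed.

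The Plin2 differences depended on wild-type control replicates 1 and 3. Without replicate 3, Plin2 was lower on high-fat diet in wild type by -0.80 (SE 0.16, adjusted p = 0.0408) and lower in transgenic than in wild-type tissue on control diet by -1.03 (SE 0.16, adjusted p = 0.03), both past the threshold, where that fit called 1.58% and 0.341% of all tested genes. The interaction without replicate 3 was 1.29 (SE 0.22, adjusted p = 0.0959). Without wild-type control replicate 1, the library with the most Plin2, the same differences were -0.28 (unadjusted p = 0.254) and -0.52 (unadjusted p = 0.0449), and the interaction to 0.77. Without the pair of libraries rich in epithelial genes, to which replicate 1 belongs, they were -0.28 (unadjusted p = 0.268), -0.56 (unadjusted p = 0.0585) and 0.81. That library was also the one with 154 CPM of epithelial markers, 1107 counts of Csn3 and the highest sum of Schwann cell markers, 208 CPM against 54.6 to 88.6 CPM in the others. The part of those cells in its Plin2 level was not tested, beyond these values without it. Leaving a library out after its value is seen selects for such calls, and the 2 remaining libraries of that group are assumed to vary like the other groups. Brown and beige adipocyte markers set replicate 3 apart within its group: they summed to 242, 217 and 22.6 CPM in wild-type control replicates 1 to 3. The sum was 29.7, 17.9 and 152 CPM in wild type given the high-fat diet, where the library with the highest sum had the lowest Plin2. It was 189, 250 and 50.1 CPM in transgenic tissue on control diet and 687, 109 and 148 CPM on high-fat diet. The part of brown or beige fat in the Plin2 values was not tested.

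The authors' deposited table for diet in transgenic tissue calls Plin2, at a log2 fold change of 0.49 with SE 0.14 and adjusted p = 0.0102. Plin2 is the only one of the 9 genes past 0.05 in the authors' deposited tables. Those tables call 1605 of 16245 genes for diet in transgenic tissue and 1011 of 16916 for diet in wild type. For the transgene they call 151 of 16025 genes on control diet and 73 of 13166 on high-fat diet. In the authors' deposited table for the transgene on control diet it has -0.75, SE 0.24 and adjusted p = 0.0968, and in that for diet in wild type -0.53, SE 0.25 and adjusted p = 0.224. DESeq2 run on only the 6 transgenic libraries, a fit added after seeing that call, gave 0.49 and adjusted p = 0.0102, in a comparison where it called 9.88% of all genes it adjusted. edgeR on the same 6 libraries gave 0.49 and adjusted p = 0.0893. The size of the difference was thus the same in each fit, and the call rested on whether the spread of the transgenic libraries alone or of all 12 was used, and on the tool.

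**Figure D3:**
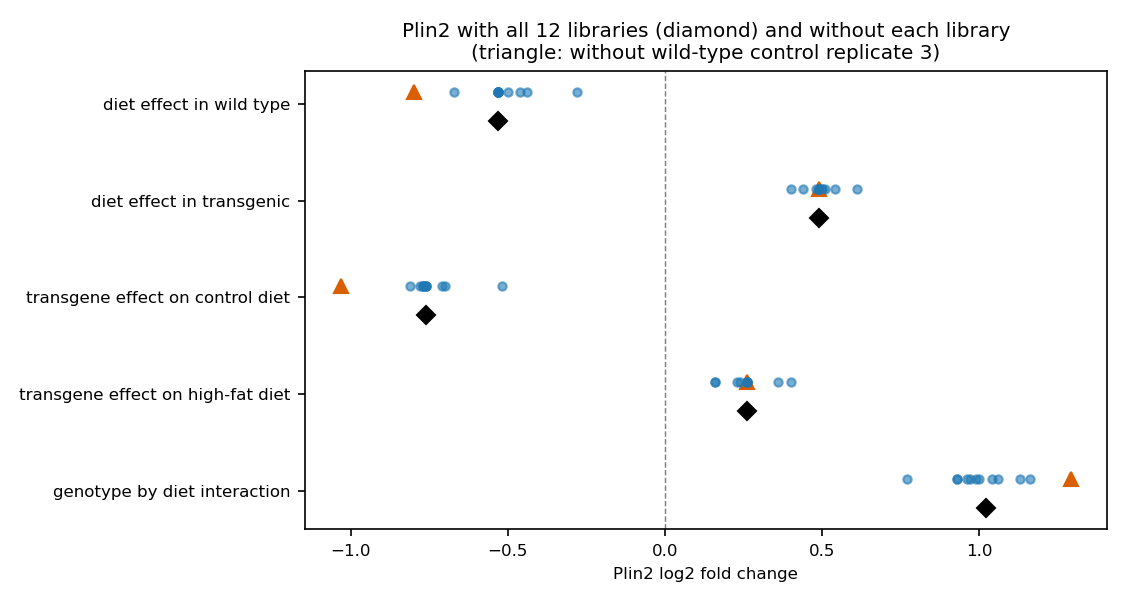
Plin2 log2 fold change (x axis) in the 4 pairwise comparisons and the interaction (y axis), with all 12 libraries (black diamonds) and with each library left out in turn (points). Orange triangles are the values without wild-type control replicate 3, at -0.80 for diet in wild type, -1.03 for the transgene on control diet and 1.29 for the interaction; every point keeps the sign of its diamond.

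Plin1 encodes perilipin 1, the dominant droplet coat of white fat cells, and its level was among the steadiest. It stood at 1522, 1643 and 1532 CPM in wild type on control diet and at 1404, 1609.6 and 1581 CPM on high-fat diet. The transgenic libraries held 1608, 1550.4 and 1859.5 CPM on control diet and at 1879, 1662 and 1817 CPM on high-fat diet. The lowest transgenic high-fat library exceeded the highest wild-type high-fat library, and in the other pairwise comparisons the groups overlapped. The diet difference was -0.03 in wild type (SE 0.12, interval -0.29 to 0.23, adjusted p = 0.918), against 0.09 in the transgenic libraries (SE 0.12, interval -0.16 to 0.35, adjusted p = 0.666). The transgene difference was 0.10 on control diet (SE 0.12, adjusted p = 0.817) and 0.22 on high-fat diet (SE 0.12, interval -0.04 to 0.48, adjusted p = 0.761).

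Plin4 encodes S3-12, a perilipin of fat cells that coats small new droplets. It stood at 2355, 3761 and 3895 CPM in wild type on control diet and at 3229.5, 4089.8 and 3533 CPM on high-fat diet. Transgenic values were 2884, 2577 and 4243 CPM on control diet and at 3539, 3996.5 and 3583 CPM on high-fat diet. The low values were in wild-type control replicate 1 and transgenic control replicates 1 and 2, and the groups overlapped in every pairwise comparison. Wild-type control replicate 1 and transgenic control replicate 2 are also the libraries with the most epithelial markers, and without that pair the diet difference in wild type was -0.08 in place of 0.12 (SE 0.22, adjusted p = 0.824). In transgenic tissue the diet difference was 0.20 (SE 0.22, interval -0.28 to 0.67, adjusted p = 0.618). The transgene differences were -0.04 on control diet (SE 0.22, adjusted p = 0.965) and 0.03 on high-fat diet (SE 0.22, adjusted p = 0.987).

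Plin3, or TIP47, is a coat protein found in most cells that moves between the cytosol and new droplets. It had the narrowest spread of the 9 genes, with 84.2, 83 and 75.7 CPM in wild type on control diet and 86.7, 89.1 and 82.8 CPM on high-fat diet. In transgenic fat it was at 75.1, 70.1 and 75.6 CPM on control diet and at 90.2, 81.1 and 83.3 CPM on high-fat diet. All 3 transgenic control libraries lay below all 3 transgenic high-fat libraries, and also just below the wild-type control libraries. The diet difference was 0.21 in transgenic tissue (SE 0.08, interval 0.02 to 0.39, adjusted p = 0.142), 0.09 in wild type (SE 0.08, adjusted p = 0.607) and 0.15 with the genotypes averaged (SE 0.06, interval 0.02 to 0.28, adjusted p = 0.101). The transgene difference on control diet was -0.14 (SE 0.08, interval -0.32 to 0.04, adjusted p = 0.577) and that on high-fat diet was -0.02 (SE 0.08, adjusted p = 0.975). None passed.

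Plin5 encodes the perilipin of oxidative tissues, where it ties droplets to mitochondria, and it was low and variable here. It stood at 24.65, 43.2 and 20 CPM in wild type on control diet and at 21.5, 16.5 and 21.1 CPM on high-fat diet. In transgenic tissue it stood at 25.3, 47.7 and 19.1 CPM on control diet and at 53.1, 18.8 and 37.4 CPM on high-fat diet. Every group except wild type on high-fat diet held both a low and a high library, and every pairwise comparison overlapped. On high-fat diet the transgene difference was 0.89 (SE 0.40, interval 0.02 to 1.76, adjusted p = 0.73), and without transgenic high-fat replicate 1 it was 0.51. In the authors' deposited table this comparison gave Plin5 0.89 with SE 0.28 and adjusted p = 0.124. The diet difference was -0.57 in wild type (SE 0.40, interval -1.44 to 0.29, adjusted p = 0.481; -0.17 without control replicate 2), against 0.25 in the transgenic libraries (SE 0.39, interval -0.61 to 1.11, adjusted p = 0.741). The libraries with the most Plin5, transgenic high-fat replicate 1 and transgenic control replicate 2, also had the highest sums of brown and beige markers, 687 and 250 CPM. Ucp1, which defines brown and beige fat cells, had 4744 and 1704 counts there and 2 counts in each of wild-type control replicate 3 and wild-type high-fat replicate 2, where Plin5 was 20 and 16.5 CPM. Several libraries went against the order of Ucp1. Wild-type control replicate 1 had 1909 counts of Ucp1 and Plin5 at 24.65 CPM. Wild-type high-fat replicate 3 had 1097 counts with Plin5 at 21.1 CPM, and transgenic high-fat replicate 2 had 790 with 18.8 CPM. Plin5 was higher, at 43.2 and 37.4 CPM, in wild-type control replicate 2 and transgenic high-fat replicate 3, which had only 545 and 407 counts of Ucp1. Other brown and beige markers were high in wild-type control replicate 2, with Cidea at 78.7 and Cox8b at 74.2 CPM. Its marker sum was 217 CPM, and that of transgenic high-fat replicate 3 was 148 CPM. The sums were 242, 152 and 109 CPM in wild-type control replicate 1, wild-type high-fat replicate 3 and transgenic high-fat replicate 2. The part of brown or beige fat in the Plin5 values was not tested.

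**Figure D4:**
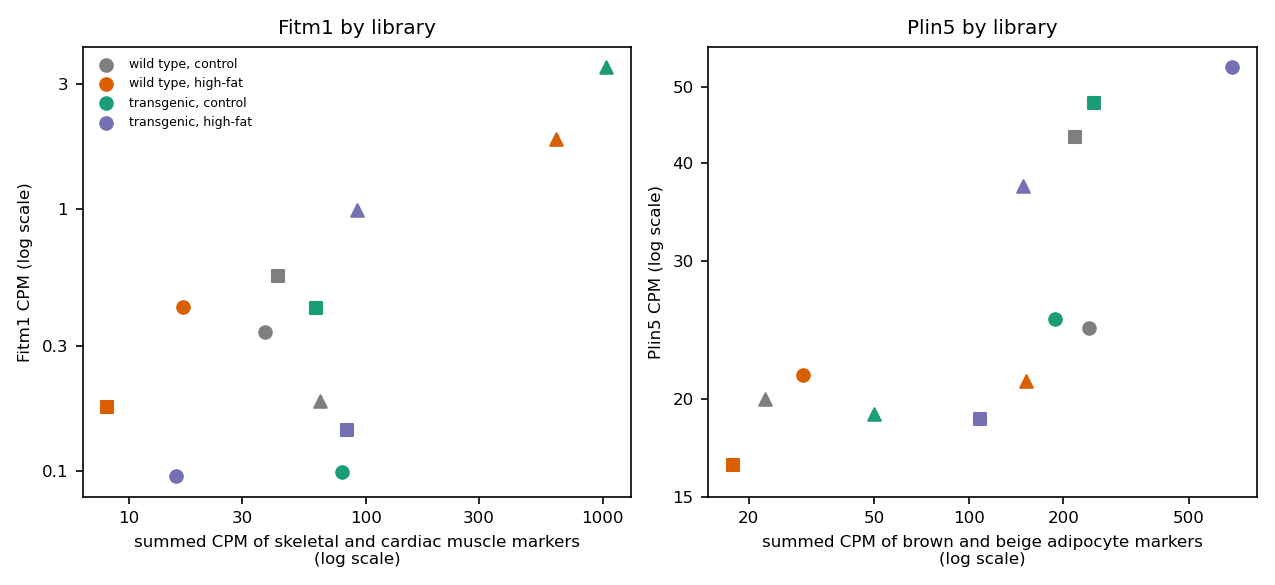
Left, Fitm1 CPM (y axis) against the summed CPM of skeletal and cardiac muscle markers (x axis) in the 12 libraries; right, Plin5 CPM against the summed CPM of brown and beige adipocyte markers, all on log scales. Colours are groups and circles, squares and triangles are replicates 1, 2 and 3; the 3 libraries with the most Fitm1 are the 3 with the highest muscle sums, 91.5, 632 and 1033 CPM.

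Cidec, also called Fsp27, concentrates at contacts between droplets and drives the growth of 1 large droplet. It stood at 2475, 3256 and 3665 CPM in wild type on control diet and at 3597, 2947 and 3067 CPM on high-fat diet. The transgenic libraries held 3209, 3776 and 2813 CPM on control diet and at 3604, 3929 and 3831.5 CPM on high-fat diet. The 3 transgenic high-fat libraries lay above the wild-type high-fat ones, narrowly so for the nearest pair (3604 against 3597 CPM), and the groups overlapped in the other pairwise comparisons. The transgene difference on high-fat diet was 0.24 (SE 0.17, interval -0.12 to 0.61, adjusted p = 0.822), and that on control diet was 0.06 (SE 0.17, adjusted p = 0.933). The diet difference was 0.03 in wild type (SE 0.17, adjusted p = 0.941), against 0.21 in the transgenic libraries (SE 0.17, interval -0.15 to 0.58, adjusted p = 0.457). None passed, and the transgene difference on control diet was -0.21 without the pair of libraries rich in epithelial genes.

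Bscl2 encodes seipin, whose loss causes a generalized lack of fat tissue. It stood at 447, 419 and 333 CPM in wild type on control diet and at 344, 332 and 323 CPM on high-fat diet. Transgenic values were 414, 546 and 402 CPM on control diet and at 427, 390.6 and 496 CPM on high-fat diet. On high-fat diet the transgenic libraries exceeded the wild-type ones, in a comparison where 14% of all tested genes did not overlap. In the other pairwise comparisons the groups overlapped. On high-fat diet the transgene difference was 0.40 (SE 0.15, interval 0.07 to 0.72, unadjusted p = 0.0205, adjusted p = 0.714), on control diet it was 0.18 (SE 0.15, adjusted p = 0.69), and averaged over diets it was 0.29 (SE 0.11, interval 0.06 to 0.52, adjusted p = 0.311). In the authors' deposited table for the transgene on high-fat diet, Bscl2 has 0.39 with SE 0.12 and adjusted p = 0.102. DESeq2 on only those 6 libraries gave 0.39 with SE 0.12 and, with its filter on low means set for a threshold of 0.05, adjusted p = 0.0498, where 2.16% of the 3652 genes that this filter kept were called. The diet difference was -0.26 in wild type (SE 0.15, interval -0.59 to 0.06, adjusted p = 0.377), against -0.05 in the transgenic libraries (SE 0.15, adjusted p = 0.861).

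Fitm2 encodes FIT2, the form of the protein found in fat cells and most other cells. It stood at 120.2, 139 and 126 CPM in wild type on control diet and at 120.3, 99.1 and 107 CPM on high-fat diet. In transgenic fat it was at 124, 150.3 and 129 CPM on control diet and at 125, 129 and 139.7 CPM on high-fat diet. Wild type on high-fat diet was the lowest group, and its highest library was level with the lowest wild-type control library. The diet difference in wild type was -0.24 (SE 0.11, unadjusted p = 0.0471, adjusted p = 0.27) and that in transgenic tissue -0.04 (SE 0.11, interval -0.27 to 0.20, adjusted p = 0.871). The transgene difference on high-fat diet was 0.27 (SE 0.11, interval 0.03 to 0.50, unadjusted p = 0.0287, adjusted p = 0.714), that on control diet 0.07 (SE 0.11, adjusted p = 0.88) and that averaged over diets 0.17 (SE 0.08, adjusted p = 0.406). For neither Fitm2 nor Bscl2 did the interaction pass (0.20, SE 0.15, adjusted p = 0.915, and 0.21, SE 0.21, adjusted p = 0.93).

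Fitm1 encodes FIT1, the form made mainly by skeletal muscle and heart, and it was close to the limit of detection. Its counts were 7, 11 and 4 in wild type on control diet, 9, 4 and 40 on high-fat diet, 2, 8 and 77 in transgenic tissue on control diet and 2, 3 and 20 on high-fat diet. The 3 highest libraries, with 77, 40 and 20 counts, were the 3 with the highest sums of muscle markers. Without the pair of libraries richest in muscle genes, the Fitm1 difference changed sign in all 7 comparisons, with -0.26 in place of 1.18 for diet in wild type and -0.47 in place of 1.90 for the transgene on control diet. With all libraries the diet differences were 1.18 in wild type (SE 1.19, adjusted p = 0.649), against -1.71 in the transgenic libraries (SE 1.15, adjusted p = 0.378).

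The 9 genes differed widely in how much they varied inside a group. The within-group SD on the log2 scale was 0.07 for Plin3 and 0.10 for Plin1, smaller than in all but 1.44% and 8.53% of tested genes, whose median was 0.22. Fitm2 had an SD of 0.12, Bscl2 of 0.19 and Cidec of 0.20. Plin4 had 0.29 and Plin2 0.34, above 63.6% and 70.1% of tested genes, and Plin5 had 0.59, above 89.9%. Over all 12 libraries the highest value was 1.29 times the lowest for Plin3, 2.42 times for Plin2 and 3.22 times for Plin5. The neighbours Plin4 and Plin5 had profiles that differed by a root mean square of 0.69 on the log2 scale over the 12 libraries after each was centred on its own mean. The closest pair among the 9 was Fitm2 and Bscl2, at 0.14, followed by Plin1 and Plin3, at 0.15.

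By the same measure, the 2 tested genes most like each of the 9 over the 12 libraries were picked out. Plin2 was closest to Uhrf1bp1 (0.13) and Mrap (0.18), where its own SD over the libraries was 0.40 and its median distance to all genes 0.47. Plin1 was closest to Gnb2 (0.052) and Gnas (0.06), with an SD of 0.13, and Plin3 to Syncrip (0.046) and Xpnpep1 (0.046), with an SD of 0.11. For such steady genes a small distance says mainly that the other gene is steady too. Plin5 was closest to Adtrp (0.28) and Hadha (0.30), a subunit of the mitochondrial trifunctional protein of fatty acid oxidation, with an SD of 0.58. Cidec was closest to Tmbim1 and Decr2 (0.11 each, SD 0.21), Plin4 to Map2k3 and Rev1 (0.13 each, SD 0.27), Fitm2 to Creld1 (0.075) and Bckdhb (0.076, SD 0.16), and Bscl2 to Pex14 (0.094) and Kbtbd11 (0.097, SD 0.24). Fitm1, with few counts, was closest to Ankrd23 (0.62) and Ppp1r3a (0.65), both genes of striated muscle, with an SD of 1.3.

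Some genes that act around the droplet coat were called for diet. With the genotypes averaged, where 17.4% of all genes were called, 4 of 9 lipolysis genes were called (1 higher and 3 lower on high-fat diet), 2 of 12 genes of droplet assembly and triglyceride synthesis (both lower), 2 of 11 tested genes of other droplet surface proteins (both higher), 2 of 10 transcription factors (both lower) and 3 of 9 fatty-acid-responsive PPAR targets (2 higher and 1 lower). The median log2 fold change was -0.02 for the 9 coat and assembly genes, -0.24 for lipolysis, -0.03 for assembly, -0.06 for other surface proteins, -0.07 for transcription factors, -0.06 for PPAR targets and -0.02 for all tested genes. The shares of the assembly, surface and transcription factor lists are near that of all genes. In wild type alone, where 1.14% of all genes were called, 1 lipolysis gene (Pnpla2) and 1 assembly gene (Mogat1) were called, both lower. The Pnpla2 call in wild type alone was lost under 14 of 21 alternative fits and the Mogat1 call under 8 of 21. Over these fits the differences were -0.72 to -0.57 for Pnpla2 and -1.45 to -1.05 for Mogat1. In transgenic tissue, where 8.73% of all genes were called, 1 assembly gene, 2 lipolysis genes, 2 surface genes and 1 PPAR target were called. For the transgene averaged over diets, edgeR called 0 of the 51 genes of these lists, limma-voom 0 and DESeq2 on all 12 libraries 9 (1.45% of all genes), and 14 had an unadjusted p below 0.05 by edgeR. The 9 that DESeq2 called were Pnpla2 (0.42, adjusted p = 7.4e-05), Angptl4, Acot2, Acadl, Acsl1, Pdk4, Ppara and Prkaca, all higher in transgenic tissue, and Pparg, lower (-0.36, adjusted p = 0.0117). On control diet edgeR and limma-voom called 0 of the 51, DESeq2 called 4 (Angptl4, Cav1, Lpin1 and Pparg, where it called 1.69% of all genes), and 12 had an unadjusted p below 0.05. On high-fat diet edgeR and limma-voom called 0, DESeq2 called 1 (Pnpla2, 0.54, SE 0.11, adjusted p = 0.0118) and 0.00933% of all genes, and 13 had an unadjusted p below 0.05. For the interaction edgeR, DESeq2 (0.215% of all genes) and limma-voom each called 0, and 4 had an unadjusted p below 0.05.

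Among lipolysis genes, Pnpla2, which encodes ATGL, the lipase that begins triglyceride breakdown, fell from 3417 ± 347 to 2187 ± 44.1 CPM in wild type and stood at 4217.5 ± 457 and 3187 ± 202 CPM in transgenic tissue on the control and high-fat diets (averaged log2 -0.52, SE 0.09, adjusted p = 0.00354). G0s2, an inhibitor of ATGL, was lower too (averaged log2 -0.72, SE 0.14, adjusted p = 0.00633), from 294 ± 45.1 to 186 ± 31.9 CPM in wild type and from 356 ± 81.8 to 208 ± 40 CPM in transgenic tissue. Abhd5, the ATGL co-activator that perilipin 1 holds at the droplet, fell by 0.51 on the log2 scale (SE 0.13, adjusted p = 0.0178), and this call was lost without the pair of libraries rich in epithelial genes (-0.38, adjusted p = 0.0708). Mgll, the lipase of the last step, rose by 0.48 (SE 0.10, adjusted p = 0.00693). The lipase, its inhibitor and its co-activator were thus all lower on high-fat diet while Plin1, with an averaged diet difference of 0.03 (SE 0.08, interval -0.15 to 0.21), did not pass. For Pnpla2 the transgene difference averaged over diets was 0.42 and did not pass by edgeR (adjusted p = 0.17).

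Of the assembly and synthesis genes, Mogat1, a monoacylglycerol acyltransferase, fell most, from 16.2 ± 4.56 to 6.82 ± 0.953 CPM in wild type and from 16.2 ± 4.07 to 8.62 ± 1.55 CPM in transgenic tissue (averaged log2 -1.08, SE 0.17, adjusted p = 0.00203). Tmem159, which encodes the seipin partner LDAF1, was lower by -0.39 (SE 0.11, adjusted p = 0.0323), a call lost under 9 of 19 alternative fits with values of -0.47 to -0.33. Dgat2, the acyltransferase of the last step of triglyceride synthesis, was 0.39 higher on average and did not pass by edgeR (adjusted p = 0.153). On the control and high-fat diets it stood at 3342 ± 1371 and 3209 ± 172 CPM in wild type. In transgenic tissue it stood at 2016.5 ± 215 and 3596 ± 393.5 CPM. For diet in transgenic tissue edgeR did not call it. DESeq2 on all 12 libraries did (0.84, SE 0.24, adjusted p = 0.00744), in a comparison where it called 2148 genes. Among other surface proteins, Cavin1 and Cav1, which shape caveolae and also reach droplets in fat cells, rose by 0.57 (SE 0.11, adjusted p = 0.00461) and 0.38 (SE 0.09, adjusted p = 0.013). Caveolin 1 is also an endothelial gene, and the endothelial marker sum ran from 547 to 635 CPM and from 693 to 771 CPM in wild type on the control and high-fat diets and from 695 to 833 and from 650.2 to 848 CPM in transgenic tissue; its part in the Cav1 value was not tested. Cideb and Hsd17b13 had too few counts to be tested, and Spart was not found under that symbol.

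Of the transcription factors, Srebf1 (-0.47, SE 0.12, adjusted p = 0.017) and Mlxipl (-0.70, SE 0.21, adjusted p = 0.041), which switch on fatty acid synthesis in response to insulin and glucose, were lower on high-fat diet. The Mlxipl call was lost under 12 of 19 alternative fits, at values of -0.85 to -0.55, and the Srebf1 call under 1, without the pair of libraries rich in epithelial genes, where the difference was -0.45 (adjusted p = 0.0591). Pparg, the adipocyte receptor that drives several of the coat genes, differed by -0.36 with the transgene averaged over diets and did not pass by edgeR (adjusted p = 0.188). Among targets that respond to fatty acids through PPAR receptors, as Plin2 does, Angptl4, a secreted inhibitor of lipoprotein lipase, rose by 0.43 (SE 0.12, adjusted p = 0.0246, lost under 5 of 19 alternative fits) and Cpt1a, the carnitine palmitoyltransferase of fatty acid oxidation, by 0.49 (SE 0.12, adjusted p = 0.0169). For the transgene averaged over diets, Pdk4 (1.3, adjusted p = 0.17) and Ppara (0.93, adjusted p = 0.213) did not pass by edgeR.

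**Figure D5:**
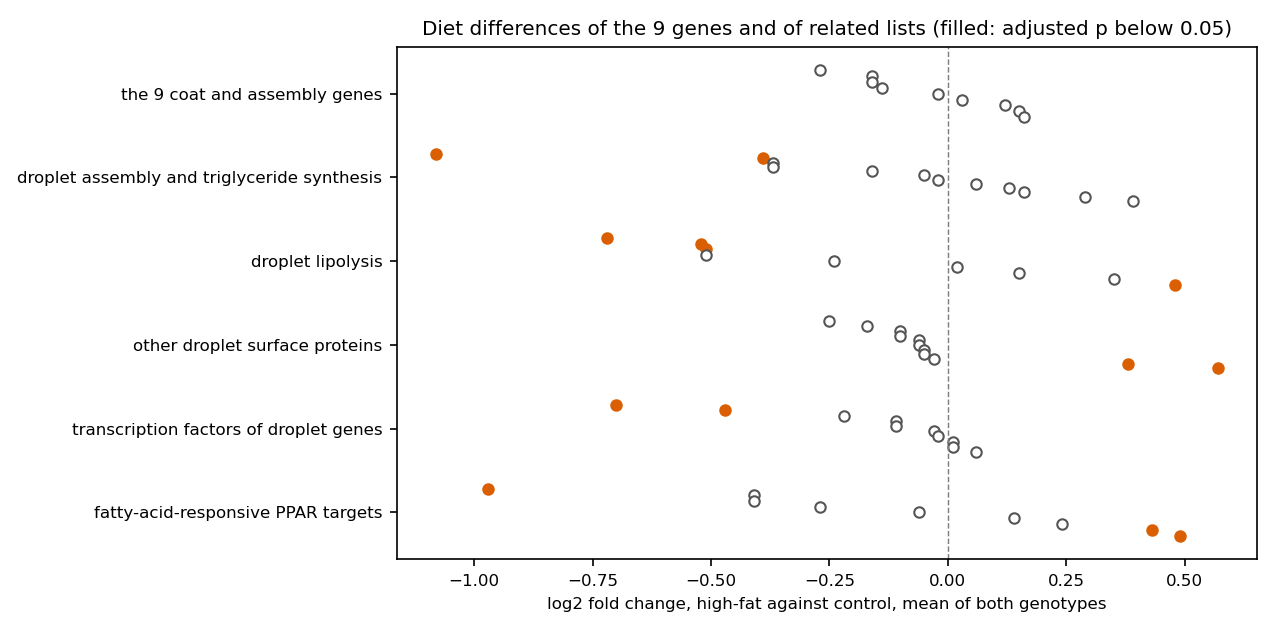
Log2 fold change of high-fat against control diet, averaged over genotypes (x axis), for the 9 coat and assembly genes and the tested genes of 5 related lists (y axis); each circle is a gene and filled circles have an adjusted p below 0.05. None of the 9 coat and assembly genes and 4 of 9 lipolysis genes are filled, where 17.4% of all tested genes were called.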

How the data were processed

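Gene expression was measured by RNA sequencing of visceral white adipose tissue in 12 libraries, grouped by the labels' titles. The authors deposited raw counts per gene for each library. The tools in the submitters' processing notes are HISAT2 2.2.0 and HTSeq 2.0, with DESeq2 1.32.0 and the mm10 build; annotation and strand setting of the counting: not given in the sources used here. The 5 summary entries of unassigned reads (16.8% to 21% of reads) were left out. The authors also deposited tables with log2 fold changes, their standard errors, p-values and adjusted p-values per gene for the 4 pairwise comparisons, per the file headers; values quoted from them are named as such.

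The analysis used edgeR 4.0.16 in R 4.3.3. Of all genes, 16550 passed filterByExpr (minimum count 10, minimum total 15). Libraries were scaled with TMM, 1 mean per group was fitted over the 12 libraries (8 residual degrees of freedom), and contrasts were tested with the two-sided quasi-likelihood F test. P-values were adjusted by Benjamini-Hochberg over the 16550 genes, and an adjusted p below 0.05 is a call. The biological coefficient of variation was 20.1%. The SE is the size of the log2 fold change over the square root of F, and intervals are 95%. The fit was tested on simulated data. Alternatives were DESeq2 1.42.0 (with its filter on low means set for a threshold of 0.05), limma 3.58.1 voom with quality weights, no filter beyond 1 count, library totals in place of TMM, scaling by adipocyte markers, only the libraries compared, a replicate block, and leaving out libraries. DESeq2 on only the libraries compared, the promoter search with mismatches and the alternatives for list genes were added after seeing the data. The fits by pairs of groups share libraries.

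The 9 genes, the lists of related genes and the markers were chosen with earlier results of these data known. Named list genes are the 4 with the smallest p for diet averaged over genotypes and the 2 with the smallest p for the transgene averaged over diets in each list, with genes that another tool called named after their values were seen; likeness names the 2 nearest genes per gene. Values are described for those that bear on the coat genes. One named list gene is not reported here. Positions and promoter windows are from RefSeq (GRCm38.p6), and exon lengths and overlaps from GENCODE of the same assembly. No 2 libraries were copies of each other (lowest chi-square per degree of freedom of any pair 20.7).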

Additional observations from a re-analysis of the deposited data

How the results depend on the processing

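Depth (20.1 to 21.3 M counts) limits only Fitm1. For the 9 genes, no call was made under any alternative for diet or transgene averaged or for the interaction (lowest adjusted p = 0.0675, 0.163 and 0.0959). One gene was called (1 in place of 0) by DESeq2 on only the libraries compared, for diet in transgenic (Plin2) and for the transgene on high-fat diet (Bscl2). Leaving out 1 library gave 0 to 1 called genes for diet in wild type and for the transgene on control diet, the 1 being Plin2 without wild-type control replicate 3. The differences that changed sign are given below, and the cause was not tested. Many were near 0, but those of Fitm1 were large. With all 12 libraries Fitm1 had 1.90 for the transgene on control diet and -2.88 for the interaction.

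Library totals gave Plin1 0.04 for diet in wild type, Plin4 -0.05 for the transgene on high-fat diet and -0.03 for the interaction, and Plin2 0.01 for diet averaged. Adipocyte marker scaling, which shifts the median of all genes by -0.14 for diet in transgenic and -0.11 for diet averaged, gave Cidec -0.02 for diet in wild type and Plin1 -0.03 and -0.06 for those 2 comparisons. It gave Plin4 0.02, -0.02, -0.04 and 0.00 for the transgene on control diet, on high-fat diet, the interaction and the transgene averaged. limma-voom gave Plin5 -0.05 for the transgene on control diet and Fitm1 -0.59 for the transgene averaged. Without both libraries rich in muscle genes, Plin5 was 0.00 for diet in transgenic and Plin2 0.00 for diet averaged. Fitm1 was then -0.26 and 0.66 for diet in wild type and transgenic, -0.47 and 0.45 for the transgene on control and high-fat diet, 0.92 for the interaction, 0.20 for diet averaged and -0.01 for the transgene averaged. Without both libraries rich in epithelial genes, Plin4 was -0.08 and Cidec -0.11 for diet in wild type, Fitm2 0.06 and Bscl2 0.11 for diet in transgenic, and Plin5 -0.51, Cidec -0.21 and Fitm2 -0.08 for the transgene on control diet. Plin1 was then 0.00, Plin2 0.13, Plin4 -0.01 and Plin5 0.02 for diet averaged.

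Leaving out 1 library at a time, the lowest and highest values of the differences that changed sign were -0.07 and 0.03 for Plin1, -0.08 and 0.24 for Plin4, -0.11 and 0.16 for Cidec and -0.26 and 1.65 for Fitm1 for diet in wild type. For diet in transgenic they were -0.12 and 0.72 for Plin5, -3.42 and 0.66 for Fitm1, -0.08 and 0.06 for Fitm2 and -0.14 and 0.11 for Bscl2. For the transgene on control diet they were -0.29 and 0.09 for Plin4, -0.40 and 0.46 for Plin5, -0.09 and 0.19 for Cidec, -0.47 and 2.43 for Fitm1 and -0.03 and 0.12 for Fitm2. On high-fat diet they were -0.08 and 0.01 for Plin3, -0.04 and 0.13 for Plin4 and -2.71 and 0.45 for Fitm1. They were -0.06 and 0.33 for Plin4 in the interaction, -0.16 and 0.11 for Plin2, -0.34 and 0.08 for Plin5 and -1.12 and 0.92 for Fitm1 for diet averaged, and -0.13 and 0.06 for Plin4 and -0.73 and 1.17 for Fitm1 for the transgene averaged. Without a change of sign, Plin2 ranged from -0.80 to -0.28 and Plin5 from -0.79 to -0.17 for diet in wild type, Plin2 from -1.03 to -0.52 for the transgene on control diet, and Plin5 from 0.51 to 1.2 for the transgene on high-fat diet.

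With no pairing stated in the labels, same-numbered libraries had correlations of -0.11 to 0.27 over 18 pairs, 4 of them over 0.1, and 4 of 12 libraries correlated best with their own number (other pairs -0.26 to 0.19). Replicate 3 had the highest sum of muscle markers in each of the 4 groups. By the rule that every pair must exceed 0.1, the numbers were not taken to pair the libraries. The replicate block called 0 of the 9 genes, gave Plin4 0.00 and Fitm1 -0.08 for the transgene averaged, and left 99 genes called in place of 188 for diet in wild type and 0 in place of 6 for the transgene on control diet.

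Counts over all genes depended on the tool and the libraries. For diet in wild type, 188 became 847 with DESeq2, 1016 with DESeq2 on only the libraries compared, 699 with limma-voom, 683 without the filter, 23 and 32 without the muscle-rich and epithelium-rich pairs, and 0 to 269 leaving out 1 library. For diet in transgenic, 1445 became 764 with only the libraries compared, 826 without the epithelium-rich pair and 543 to 1505 leaving out 1 library. For the transgene on control diet, 6 became 256, 158 and 269 with DESeq2, its pairwise fit and no filter, 0 with library totals or only the libraries compared, 16 and 1 without the pairs, and 0 to 58 leaving out 1 library. On high-fat diet 0 became 3, 79 and 5 with those first 3 fits. For the interaction 0 became 30 with DESeq2, 53 without the filter, 1 without the epithelium-rich pair and 0 to 8 leaving out 1 library. For diet averaged, 2882 became 1865 without the epithelium-rich pair and 1868 to 2992 leaving out 1 library. For the transgene averaged, 0 became 220, 2 and 145 with DESeq2, limma-voom and no filter, 1 without the epithelium-rich pair and 0 to 6 leaving out 1 library.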
